A study of Mus musculus with 4 samples.

Results

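Short interspersed nuclear elements (SINEs) were followed in the RNA of AB2.2 cells, a mouse embryonic stem cell (ESC) line, with and without lactate. The members are the 35 rows of the raw count table whose label has SINE as its class, of 56488 rows in all and of 1153 rows for transposable elements. Each row is a subfamily, and the reads of all its copies in the genome are added up in it. By the family field of the label, 16 rows belong to Alu (the B1 elements of the mouse and their relatives), 5 to B2, 4 to B4, 4 to ID, 4 to MIR and 2 to Deu. Control cells and cells kept in 50 mM lactate for 24 h gave 2 libraries each. All of these cells grew on mouse embryonic fibroblast feeders in medium with 15% serum, 1000 U/ml leukemia inhibitory factor and the kinase inhibitors CHIR99021 (3 µM) and PD0325901 (1 µM), and they are a single cell line. The labels do not say whether libraries of a group came from separate cultures, so the p-values measure the spread between these libraries, which may be technical.

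SINEs are short retrotransposons without coding capacity that are copied with the reverse transcriptase of LINE-1 elements. Their own promoter is internal and is read by RNA polymerase III. B1 descends from 7SL RNA, the RNA of the signal recognition particle. B2 and MIR descend from transfer RNAs, ID is related to BC1 RNA, and B4 resembles a fusion of ID and B1. MIR and the Deu elements are old and were already present in early mammals or before, whereas B1 and B2 have copies that arose in the mouse lineage. B2 RNA is known to accumulate on heat shock, when it binds RNA polymerase II. Many SINE copies lie in introns or untranslated parts of genes, and reads from a host transcript cannot be told apart here from RNA that starts at the SINE itself. Differences between rows in their level also carry the number of copies in the genome, so rows are compared between libraries and not with each other.

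The ID family can be set beside BC1 RNA in sequence, and BC1 is shown to let its letters be compared with transcripts of other genes. The sequence is the GENCODE release M21 transcript on GRCm38, and its gene Bc1 lies at chr7:144914470-144914637 on the plus strand. Capitals mark the 12-base stretch that, apart from windows with long runs of A or T, occurs in the transcripts of the most other genes on either strand.
Bc1: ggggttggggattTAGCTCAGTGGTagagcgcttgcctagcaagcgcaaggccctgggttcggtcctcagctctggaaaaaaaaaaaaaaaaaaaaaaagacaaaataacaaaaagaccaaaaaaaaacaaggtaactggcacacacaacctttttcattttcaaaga
The stretch, TAGCTCAGTGGT, was found in transcripts of 264 of 55450 annotated genes (0.476%), in 135 on the sense and in 133 on the antisense strand, with 4 genes holding both. Over the 123 windows of Bc1 the median was 46 genes. At the 108 positions around it in 239 copies, the most frequent base was held by 28.5% to 70.7% of the copies, with a median of 38.5%. A match describes the letters of a transcript and does not show which reads the deposited counting gave to a SINE row.

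Reads counted on genes numbered between 18067562 and 19077885 per library, and reads on SINE rows between 513360 and 611361. For each 100 reads on genes the control libraries held 3.01 and 2.69 SINE reads in replicates 1 and 2, and the lactate libraries 3.30 and 3.04. Markers of ESCs such as Pou5f1 summed to between 5775 and 6980 CPM and markers of feeder fibroblasts to between 628 and 844 CPM, where CPM is counts per 1000000 reads on genes after TMM scaling. In bulk RNA, fewer cells of a type and less RNA per cell cannot be told apart. Replicates 1 stood apart from replicates 2 in mitochondrial reads, which took 5.48% of gene counts in control replicate 1 and 2.43% in control replicate 2, and 5.72% in lactate replicate 1 and 2.82% in lactate replicate 2.

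To ask whether lactate moved SINE RNA as a whole, the rows of each family were summed. All SINE rows together held 31409 and 27013 CPM in the control libraries and 32835 and 29133 CPM in the lactate libraries. Lactate replicate 2 lay below control replicate 1, so the groups overlapped with TMM scaling, whereas per 100 reads on genes, without TMM, both lactate libraries were the higher ones. The means were 29211 ± 3109 and 30984 ± 2618 CPM (SD, n = 2), 6.07% higher with lactate, which is less than the spread. The log2 ratio of the means of 0.09 became −0.02 without control replicate 2, −0.0039 without lactate replicate 1 and 0.20 without control replicate 1, and it was 0.15 with gene totals alone. No test was made of sums, because the smallest two-sided exact permutation p for this design is 0.33.

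The Alu family, with the B1 elements, had 12152 and 10855 CPM in the control against 12534 and 11845 CPM in the lactate libraries. B2 had 8242 and 6321 CPM in the control against 8855 and 6853 CPM in the lactate libraries, and B4 had 7958 and 6972 against 8197 and 7417 CPM. In these 3 families the groups overlapped, and each time replicate 1 was the higher library of its group. The means were 5.96% higher with lactate for Alu, 7.86% for B2 and 4.59% for B4. In each of the 3 families the lactate library was higher than the control library of the same replicate number. The size of the difference, and in B2 and B4 its direction, changed with the library left out. The log2 ratio of B2 of 0.11 became −0.07 without control replicate 2, −0.09 without lactate replicate 1, 0.31 without control replicate 1 and 0.28 without lactate replicate 2. That of B4 ran from −0.03 to 0.16 and that of Alu from 0.0044 to 0.17, in both cases lowest without control replicate 2 and highest without control replicate 1. ID had 1223 and 1055 CPM in the control against 1243 and 1115 CPM in the lactate libraries, which also overlapped, and its log2 ratio ran from −0.05 to 0.16 between the same omissions.

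MIR and Deu were the families without overlap, in opposite directions. Of all single rows tested, 27.1% had both lactate libraries above both controls and 24.9% had both below. MIR had 1809 and 1785 CPM in the control against 1982 and 1879 CPM in the lactate libraries, with means of 1797 ± 17.2 and 1930 ± 72.6 CPM (SD, n = 2), 7.40% higher. The log2 ratio of 0.10 became 0.17 with gene totals alone and 0.03 as a share of transposable element reads. Deu held few reads, with 24.9 and 25.3 CPM in the control against 24.3 and 24.7 CPM in the lactate libraries. The Deu sum was 2.22% lower with lactate, and its direction turned when libraries were scaled by their gene totals alone, with a log2 ratio of 0.03.

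**Figure D1:**
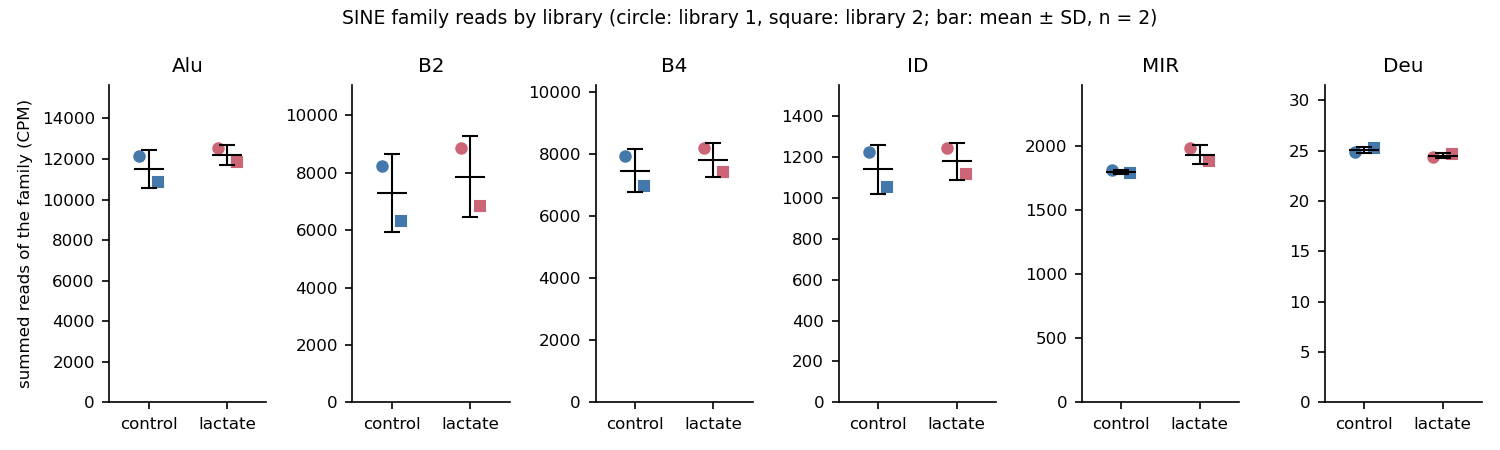
Summed level of each SINE family in the 4 libraries, in CPM scaled on gene counts, with 1 panel per family. The axes start at the same value and differ in their upper end. Points are libraries and bars are group means; in MIR and Deu the control and lactate points do not overlap, and in B2 the gap between replicates 1 and 2 is wider than the gap between the groups.

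Among the B1 rows, B1_Mus1 held the most reads, 26695 to 31360 per library. Its level was 1561 and 1405 CPM in the control against 1638 and 1587 CPM in the lactate libraries. With lactate both libraries exceeded both controls, and the log2 change was 0.12 (SE 0.15, adjusted p = 0.700, from the quasi-likelihood test of edgeR adjusted over all rows). B1_Mm, the subfamily named for the house mouse, had 553 and 485 CPM in the control against 597 and 563 CPM in the lactate libraries. Its groups did not overlap either, with a log2 change of 0.16 and an adjusted p of 0.578. With a library left out, the log2 change ran from 0.06 to 0.24 for B1_Mm and from 0.04 to 0.18 for B1_Mus1.

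Apart from FAM, the other rows of the family had smaller log2 changes. B1_Mus2 had 1196 and 1086 CPM in the control against 1211 and 1208 CPM in the lactate libraries, and B1F had 934 and 869 against 988 and 954 CPM, both without overlap. B1_Mur1 to B1_Mur4 overlapped, with log2 changes from 0.07 to 0.09. B1F1 had the smallest log2 change of the family, 0.01, with 451 and 405 CPM in the control against 454 and 409 CPM in the lactate libraries. In the PB1 rows, which stand for older forms of B1, the log2 changes ran from 0.03 for PB1D11 to 0.08 for PB1D10 and the groups overlapped.

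FAM, a fossil monomer related to Alu, had the largest log2 change of all SINE rows, 0.46 (SE 0.30, adjusted p = 0.412, edgeR). It rests on 28 and 24 reads in the control against 32 and 44 reads in the lactate libraries. Its 95% interval reached from −0.25 to 1.17 on the log2 scale and was the only interval of a SINE row that included a 2-fold change.

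In the B2 family, B3 held the most reads, with 3923 and 3053 CPM in the control against 4116 and 3284 CPM in the lactate libraries. Its log2 change of 0.09 was the smallest of the family (SE 0.21, adjusted p = 0.856, edgeR). The largest was that of B2_Mm1a, 0.23 (SE 0.21, adjusted p = 0.587, edgeR). B2_Mm1a had 282 and 221 CPM in the control against 345 and 244 CPM in the lactate libraries, so lactate replicate 2 stayed below control replicate 1. Without lactate replicate 1 its log2 change was −0.07.

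B2_Mm1t and B2_Mm2 were ordered in the same way as B2_Mm1a, with control replicate 2 the lowest and lactate replicate 1 the highest of the 4 libraries. B2_Mm1t had 409 and 295 CPM in the control against 484 and 320 CPM in the lactate libraries. B2_Mm2 had 1705 and 1235 CPM in the control against 1897 and 1352 CPM in the lactate libraries. Their log2 changes were 0.19 and 0.14, each smaller than its standard error of 0.25 and 0.24. B3A, with 1922 and 1518 against 2013 and 1652 CPM, had a log2 change of 0.09.

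The 4 rows of the B4 family had log2 changes close to one another. ID_B1 held the most reads, with 2497 and 2307 CPM in the control against 2589 and 2438 CPM in the lactate libraries. RSINE1 had 2545 and 2099 against 2587 and 2253 CPM, B4A 1897 and 1682 against 1972 and 1782 CPM, and B4 1019 and 884 against 1050 and 944 CPM. All 4 overlapped between the groups. Their log2 changes lay between 0.06 for RSINE1 and 0.07 for B4A, with standard errors from 0.16 to 0.18 and adjusted p-values of at least 0.848 (edgeR).

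In the ID family, named for the BC1-like repeats, the row ID had the largest log2 change. ID had 132.0 and 116 CPM in the control against 146 and 133 CPM in the lactate libraries, which did not overlap, and a log2 change of 0.17 (SE 0.14, adjusted p = 0.538, edgeR). ID4_ held the most reads of the family, with 516 and 446 CPM in the control against 531 and 472 CPM in the lactate libraries, and ID4 had 467 and 401 against 461 and 414 CPM. The log2 changes were 0.06 for ID4_, 0.01 for ID4 and 0.0081 for ID2. The signs of ID2 and ID4 turned in other scalings, to −0.01 and −0.0073 with DESeq2.

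In the MIR family, gaps between libraries of a group reached 0.13 on the log2 scale. In 2 of the 4 rows such a gap exceeded the gap between the groups. MIRb held the most reads, with 611 and 620 CPM in the control against 681 and 661 CPM in the lactate libraries, a log2 change of 0.13 (SE 0.14, adjusted p = 0.645, edgeR). MIR had 593 and 565 against 660.1 and 602 CPM, and MIRc 339 and 346 against 363 and 357 CPM. These 3 rows did not overlap between the groups. MIR3, with 267 and 254 against 277 and 259 CPM, overlapped and had the smallest log2 change of the family, 0.04.

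Of the Deu rows, AmnSINE1 had 21.7 and 22.3 CPM in the control against 21.6 and 22.0 CPM in the lactate libraries. Its log2 change of −0.01 turned positive with upper-quartile scaling, with gene totals alone and with a stricter filter. AmnSINE2, with 50 to 56 reads per library, was the only SINE row with both controls above both libraries with lactate, at 3.18 and 2.95 against 2.69 and 2.68 CPM. Its log2 change was −0.19 (SE 0.23, adjusted p = 0.683, edgeR).

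Over the whole class, 0 of 35 SINE rows reached an adjusted p-value under 0.05 in edgeR, where 0.847% of the 19593 genes and transposable element rows tested did so. With a change over 2-fold required too, 0.475% of all rows were called as higher and 0.322% as lower, and again 0 SINE rows. At an unadjusted p under 0.05 the count was also 0, against 22.2% of all rows tested, and the smallest unadjusted p was 0.168, that of FAM. DESeq2 called 0 SINE rows at either threshold, with 4.52% of all rows called at the adjusted one. All 35 rows had passed the filter on low counts. For 34 of the 35 rows the 95% interval of the fold change lay within 2-fold in both directions, and the standard errors ran from 0.13 to 0.30. A change smaller than these intervals was not detectable with 2 libraries per group.

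The log2 change was above 0 in 33 of the 35 rows (94.3%), against 52.2% of all rows tested, and its median was 0.07 against 0.02. In the transposable element classes LINE, LTR and DNA it was above 0 in 79.6%, 72% and 81% of the rows tested. The SINE rows share libraries and scaling and are not independent of each other. The direction changed with the library left out. Above 0 were 14 rows without control replicate 2 and 11 without lactate replicate 1, with medians of −0.01 and −0.02. Without control replicate 1 or lactate replicate 2, 33 rows each were above 0, with medians of 0.15 and 0.13. Same-numbered libraries deviated together (correlation 0.704 over the SINE rows), so an omission also unbalances the replicate numbers. Summed over all SINE rows, replicate 1 had 31409 CPM in the control and 32835 CPM with lactate. Replicate 2 had 27013 CPM in the control and 29133 CPM with lactate. No source says that the numbers mark pairs. With lactate both libraries exceeded both controls in 9 of 35 rows (25.7%), close to the 27.1% of all rows tested. The reverse held in 1 row (2.86%), against 24.9% of all rows and 3.4%, 7.35% and 4.76% of the LINE, LTR and DNA rows.

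**Figure D2:**
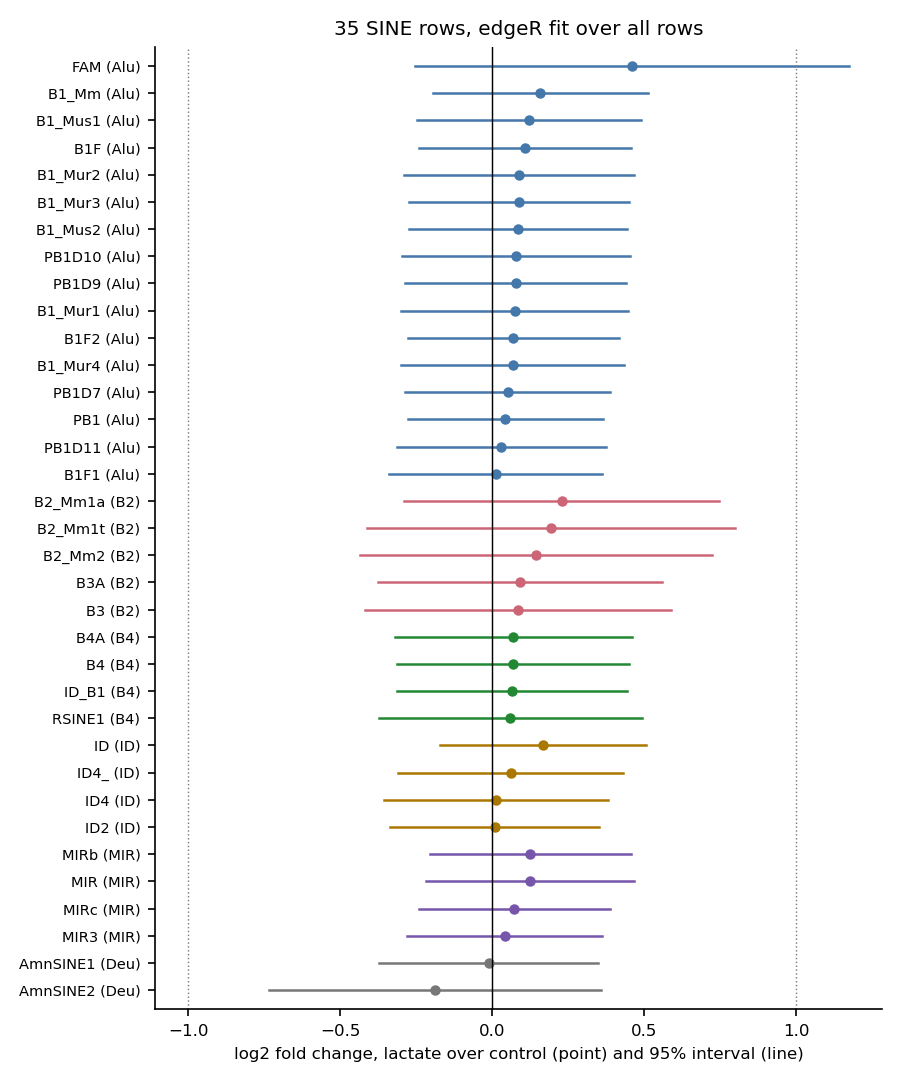
Log2 fold change of lactate over control for each of the 35 SINE rows, grouped by family, with the 95% interval of edgeR's quasi-likelihood test as a line and dashed lines at a 2-fold change. Every interval crosses 0, and FAM at 0.46 has the widest one.

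In most rows replicates 1 and 2 differed more than lactate and control did. Replicate 1 was higher than replicate 2 in both groups in 31 of 35 rows. At least one of these gaps exceeded the gap between the group means in 30 rows, and both did in 25. The gap was widest in the B2 family, where the median over its rows was 0.36 on the log2 scale between the control libraries and 0.49 between the lactate libraries, against 0.14 between the groups. In the MIR family the same medians were 0.02, 0.07 and 0.10.

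As sums, B2 was 30.4% higher in control replicate 1 than in control replicate 2, and 29.2% higher in lactate replicate 1 than in lactate replicate 2. For the B2_Mm rows alone these gaps were 37.0% and 42.3%, and for Alu 11.95% and 5.82%. Other measures differed between the same libraries. LINE-1 reads were 45.6% and 42.8% higher in replicate 1, and the mitochondrial share was higher in replicate 1 in both groups, whereas feeder markers were at 628 CPM in control replicate 1 and 844 CPM in control replicate 2, and at 641 CPM in lactate replicate 1 and 686 CPM in lactate replicate 2. Their part in the B2 gap was not tested.

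**Figure D3:**
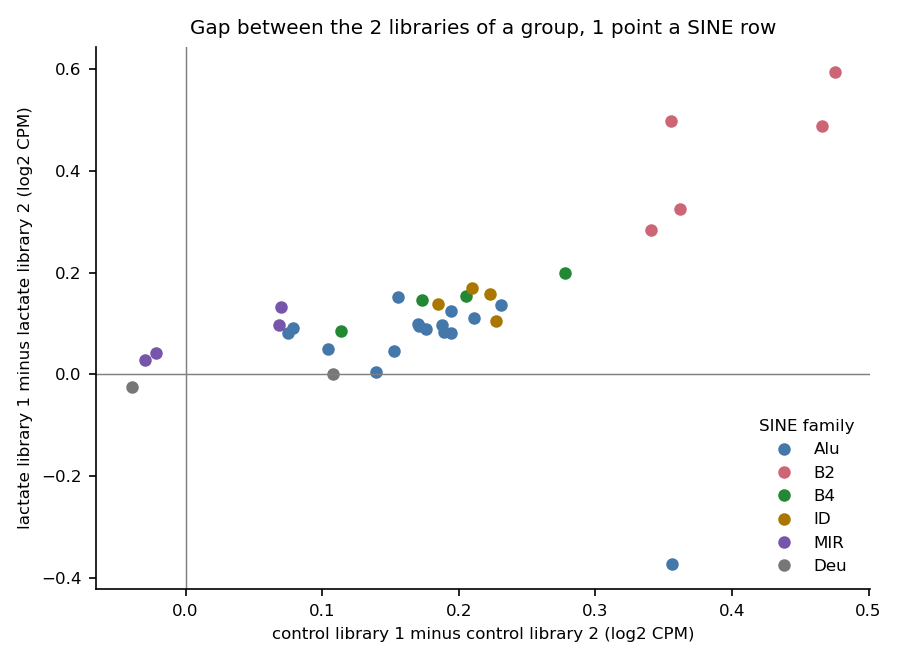
Log2 gap between replicate 1 and replicate 2 within the control group, set against that within the lactate group, with 1 point per SINE row coloured by family. B2 rows have within-group gaps from 0.28 to 0.60. The gaps between the groups are not drawn.

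Ratios between SINE rows of the same library do not depend on how the libraries are scaled. They were chosen after the values had been seen. Of the 16 ratios between SINE rows or families, 4 did not overlap between the groups. Among all single rows tested, 27.1% had both lactate libraries above both controls and 24.9% had both below. With 2 libraries per group, a lack of overlap alone therefore does not set these ratios apart. B2_Mm1a reads per 100 reads of B3, its older relative, were 7.19 and 7.22 in the control against 8.38 and 7.43 in the lactate libraries. B1_Mm reads per 100 reads of the B1_Mur rows were 17.0 and 17.2 in the control against 17.9 and 18.3 in the lactate libraries. ID reads per 100 reads of ID4 were 28.3 and 29.0 in the control against 31.6 and 32.1 in the lactate libraries. In these 3 ratios both lactate libraries were the higher ones.

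Ratios within B2 mostly followed the replicate number. B2 made up 26.2% of SINE reads in control replicate 1, 23.4% in control replicate 2, 27.0% in lactate replicate 1 and 23.5% in lactate replicate 2. B2_Mm2 per 100 reads of B3 was 43.5 and 40.4 in the control against 46.1 and 41.2 in the lactate libraries. The whole ID family took 3.89% and 3.91% of SINE reads in the control against 3.79% and 3.83% in the lactate libraries, without overlap. With each library scaled on its SINE reads, 3 of the 35 rows (8.57%), namely B1_Mm, FAM and ID, lay higher in both lactate libraries, against 20.9% of all rows under that scaling. A further 6 rows (17.1%), B1F1, B4, ID2, ID4, ID4_ and AmnSINE2, lay lower in both, against 27.7% of all rows.

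Other classes of transposable elements had larger medians, less so among their rows with many reads. Over the 17 LINE, LTR and DNA rows with at least the lower quartile of SINE reads, the median was 0.09. The median log2 change was 0.07 over the 35 SINE rows, 0.15 over 147 LINE rows, 0.13 over 558 LTR rows and 0.17 over 168 DNA transposon rows that passed the filter. As sums, LINE reads were 6.44% lower with lactate and LTR reads 10.4% and DNA transposon reads 10.4% higher, each with overlap between the groups. None of these rows had an adjusted p-value under 0.05 in edgeR, and at an unadjusted p under 0.05 there were 2 LINE rows higher (1.36%) and 2 lower, 39 LTR rows higher (6.99%) and 6 lower (1.08%), and 9 DNA rows higher (5.36%) and 1 lower (0.595%), where 11.4% of all rows tested were higher and 10.8% lower. The old L2 elements, which are the LINEs of about the age of MIR, had a median of 0.04 over 4 rows, beside 0.10 over the 4 MIR rows. SINE reads made up 31.5% and 33.9% of transposable element reads in the control against 31.7% and 34.6% in the lactate libraries, which overlapped, while LTR reads made up 35.2% and 36.5% against 37.4% and 38.3%, without overlap.

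**Figure D4:**
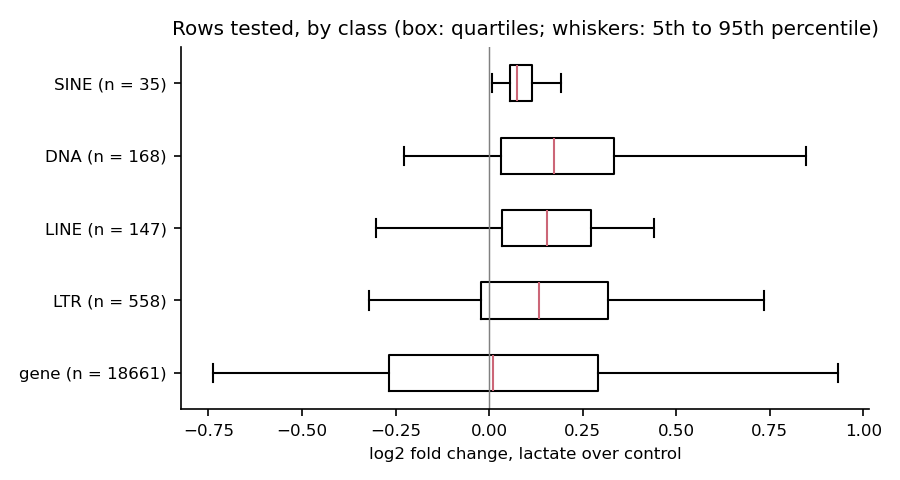
Distribution of log2 changes, lactate over control, for genes and for the SINE, LINE, LTR and DNA rows that passed the filter. Boxes are quartiles, and the most extreme rows beyond the whiskers are not drawn. SINE rows have the narrowest box, from 0.05 to 0.11, around a median of 0.07. Their full range was −0.19 to 0.46. The median standard error was 0.15 in SINE rows, 0.21 in genes, 0.22 in LINE and LTR rows and 0.26 in DNA rows.

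Small RNAs made by RNA polymerase III, the kind of transcript a SINE gives when its own promoter is used, had few reads under their gene entries. How well these libraries capture such RNA was not measured, so few reads do not show that it was scarce in the cells. The libraries held 5 and 13 reads on all of the listed entries in the control against 5 and 2 in the lactate group. Bc1 had 1 read, in lactate replicate 1, and 0 in the other libraries. Rn7sk, the RNA that holds the elongation factor P-TEFb inactive, had 5 and 9 reads in the control against 4 and 1 in the lactate libraries. Rmrp, the RNA of RNase MRP, had 1 read on each of its 2 entries in control replicate 2, and Rpph1, the RNA of RNase P, had 1 read in control replicate 2 and 1 in lactate replicate 2. None of these entries passed the filter. The same table has a repeat row for 7SK, which sums its copies in the genome, with 108 and 130 reads in the control against 125 and 133 in the lactate libraries. That row passed the filter and had a log2 change of 0.04 (SE 0.19, adjusted p = 0.931, edgeR), and it was named after its values were seen.

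RNA polymerase III and its factors were measured as messenger RNA. The list holds genes tied to this polymerase, and not all of them act in transcribing SINEs. Of 30 genes for RNA polymerase III and its factors, 0 had an adjusted p-value under 0.05, and 24 had a log2 change below 0, with a median of −0.11. At an unadjusted p under 0.05, 2 were lower (6.67%, against 10.8% of all rows) and 0 higher. These were Gtf3c1, the largest subunit of TFIIIC, which binds the internal promoter, and Polr3g, a polymerase subunit of pluripotent cells. Gtf3c1 had 237 and 262 CPM in the control against 172 and 177 CPM in the lactate libraries, a log2 change of −0.52 (SE 0.13, adjusted p = 0.104, edgeR). Polr3g had 107 and 92.9 against 75.6 and 64.5 CPM and a log2 change of −0.51, and was named after its values were seen. Gtf3c2 and Polr3b, with the most reads of the list after Gtf3c1, had log2 changes of −0.09 and −0.02.

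Chromatin factors linked to SINEs, not all of them silencers, gave no call either, with 0 of 13 at an adjusted p under 0.05 and a median of 0.03. At an unadjusted p under 0.05, 4 of the 13 were lower (30.8%, against 10.8% of all rows). Chd4, the ATPase of the NuRD and ChAHP complexes, had 774 and 792 CPM in the control against 446 and 447 CPM in the lactate libraries, a log2 change of −0.81 (SE 0.14, adjusted p = 0.0550, edgeR). Trim28, Uhrf1 and Dnmt1 had log2 changes of −0.44, −0.50 and −0.46, and Dnmt1 was named after its values were seen. For each of these 4 genes both libraries with lactate lay lower than both controls.

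Of 16 genes for proteins that bind or edit SINE RNA, 0 had an adjusted p-value under 0.05 and 5 were lower at an unadjusted p under 0.05 (31.2%, against 10.8% of all rows). Dhx9, a helicase that unwinds structures formed by inverted SINE pairs, had 666 and 631 CPM in the control against 455 and 395 CPM in the lactate libraries, a log2 change of −0.61 (SE 0.15, adjusted p = 0.0913, edgeR). Hnrnpc, which covers Alu-derived splice sites, had 580.3 and 525 against 387 and 387 CPM and a log2 change of −0.52. The others were the sensors of double-stranded RNA Ddx58, Ifih1 and Eif2ak2, named after their values were seen, with log2 changes of −0.77, −1.16 and −0.53. Adar, the main editor of such RNA and also named after its values were seen, had a log2 change of −0.10. Ago2, with the most reads of the list, had 647 and 627 CPM in the control against 675 and 633 CPM in the lactate libraries. Its log2 change was 0.04 (SE 0.14, adjusted p = 0.910, edgeR). Of the 16 genes, 6 had a log2 change above 0.

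Heat shock genes were listed because B2 RNA accumulates under heat shock. Of 7 genes, 0 had a log2 change above 0 and 2 were called as lower (edgeR), where 0.322% of all rows tested were. Without control replicate 1 the count was 1. Hspa8, a constitutive chaperone, fell from 3378 and 3633 to 1195 and 1068 CPM, a log2 change of −1.63 (SE 0.16, adjusted p = 0.0326). Hsph1, a cofactor of such chaperones, fell from 215 and 210.4 to 104 and 102 CPM, a log2 change of −1.04 (SE 0.13, adjusted p = 0.0417). Hspa1a, the inducible form, named after its values were seen, was at 1.21 and 1.37 against 0.59 and 0.81 CPM. Hsp90aa1, with the most reads of the list, had 5720 and 5089 CPM in the control against 5576 and 5020 CPM in the lactate libraries. Its log2 change was −0.03 (SE 0.17, adjusted p = 0.945, edgeR).

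A list of RNAs taken as nuclear was followed because nuclear RNA holds introns and with them SINE copies. Where these RNAs lie in the cell was not measured here. Of the 7 genes on the list, 0 had an adjusted p-value under 0.05 and 5 had a log2 change above 0. Malat1, a nuclear long noncoding RNA, had 496 and 450 CPM in the control against 567 and 542 CPM in the lactate libraries, a log2 change of 0.23 with an adjusted p of 0.390 (edgeR). Gas5, a noncoding host transcript of small nucleolar RNAs named after its values were seen, had the largest log2 change of the list, −1.12 (SE 0.17, adjusted p = 0.0514, edgeR), with 116 and 117 CPM in the control against 46.0 and 61.2 CPM in the lactate libraries. Summed, the list held 1074 and 1045 CPM in the control against 1156 and 1194 CPM in the lactate libraries, without overlap. Its part in the SINE levels was not tested.

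**Figure D5:**
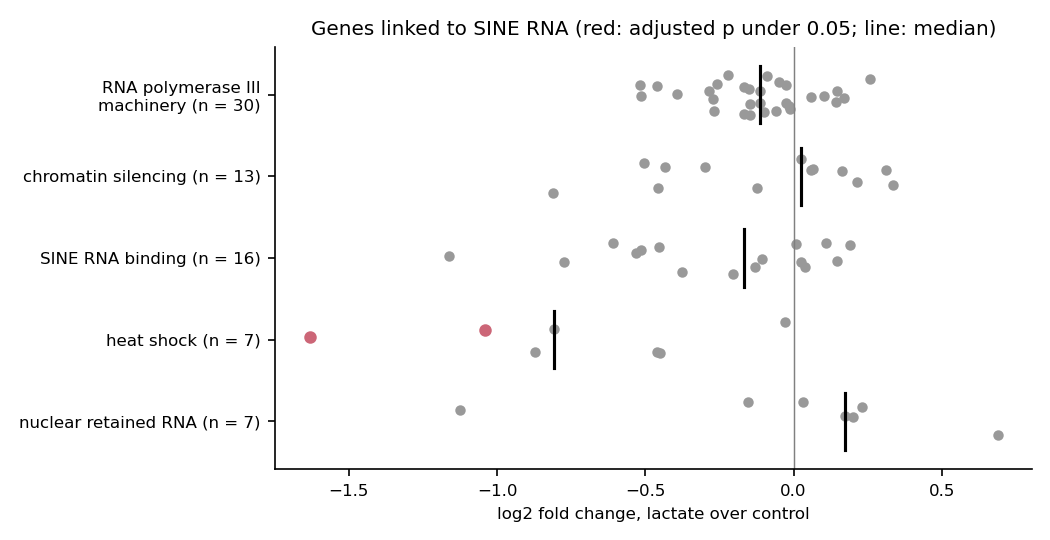
Log2 fold change of each tested gene in the lists linked to SINE RNA, with 1 row of points per list, spread vertically only to keep points apart. Heat shock genes all lie below 0, from −0.03 to −1.63, and 24 of the 30 RNA polymerase III genes lie below 0.

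Genes whose transcripts carry the BC1 stretch shown above were compared with all rows, a comparison added after the data had been seen. Of 259 such genes in the count table, 193 passed the filter, with a median log2 change of 0.03 against 0.02 over all rows. With lactate both libraries exceeded both controls in 32.6% of them, against 27.1% of all rows tested, and lay below both in 26.9%, against 24.9%. At the adjusted p edgeR called 0 of the 193, and 28 were higher (14.5%, against 11.4% of all rows) and 28 lower (14.5%, against 10.8%) at an unadjusted p under 0.05.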

How the data were processed

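RNA-seq libraries of AB2.2 ESCs, 2 control and 2 lactate, were analysed from the tables that the authors deposited. Per the submitters' processing notes, reads were trimmed with cutadapt 1.16, mapped to mm10 with STAR and quantified with RSEM. The main table holds raw read counts deposited without normalization, for 55335 genes and 1153 transposable element subfamilies. The counter of the transposable elements, its use of strand and its treatment of reads with several positions are not given in the sources used here. The authors also deposited expected counts, TPM and FPKM from RSEM for genes only. The expected counts served as an alternative scaling, and TPM and FPKM were not used.

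The raw counts were tested with edgeR 4.0.16 and limma 3.58.1 under R 4.3.3. Genes and transposable elements entered 1 fit, library sizes and TMM factors came from genes alone, and filterByExpr left 19593 rows. The quasi-likelihood test compared lactate with control, without covariates, with Benjamini-Hochberg adjustment over all rows. A call was an adjusted p under 0.05, given also with a change over 2-fold. The test was checked on simulated counts. DESeq2 1.42.0, RLE and upper-quartile factors, gene totals, TMM over all rows or without mitochondrial genes, other filters, a replicate block, the non-legacy test and each library left out were alternatives. For family sums, the share of transposable element counts was a further one. The scaling by RSEM totals in the edgeR fit and the genes with the BC1 stretch were added after the data were seen.

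Named in full were, in each SINE family, the rows with the most reads and with the largest and smallest log2 fold change, and of the gene lists every gene with an adjusted p under 0.05, every small RNA with a count and up to 3 genes with many reads. Any other gene is marked as named after its values were seen. The SINE rows and the gene lists were chosen with earlier results of these data known. A further small RNA, its sequence and its reads are not reported here.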

Additional observations from a re-analysis of the deposited data

How the results depend on the processing

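SINE rows with an adjusted p under 0.05 numbered 0 in every alternative run except the replicate block. Same-numbered libraries deviated together (correlation 0.639 over 19593 rows, and 0.704 over the 35 SINE rows), but there are only 2 pairs and no source gives them a shared batch. With the block, 4 SINE rows (11.4%) were called, B1_Mm, B2_Mm1a, B2_Mm1t and ID, all under 2-fold, while 44.1% of all rows were called. The block called 8 of 30 genes for RNA polymerase III, 8 of 13 for chromatin, 9 of 16 for RNA binding, 6 of 7 for heat shock and 4 of 7 for nuclear RNAs.

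Without a filter on low counts the lists held 1 call of 30 for RNA polymerase III, 2 of 13 for chromatin, 3 of 16 for RNA binding and 1 of 7 for nuclear RNAs. DESeq2 gave 1 for chromatin, 2 for RNA binding and 1 for nuclear RNAs, where it called 4.52% of all rows. The share of all rows called is not given here for the fit without a filter or with 1 library left out. The list counts in those settings therefore have no background beside them. Leaving out 1 library gave 0 to 2 for RNA binding, 1 to 3 for heat shock and 0 to 2 for nuclear RNAs. Both maxima of 2 came without lactate replicate 1, that for nuclear RNAs also without control replicate 2, and the heat shock list had 1 without control replicate 1 and 3 without lactate replicate 2. The MIR sum had a log2 ratio of 0.17 with gene totals alone and of 0.034 as a share of transposable element counts. The Deu sum had 0.034 and −0.099 under these settings and −0.050 with RSEM scaling. Gene totals alone moved the median of all rows from 0.02 to 0.09. The causes were not tested.

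Single SINE rows near 0 turned sign in some settings. AmnSINE1 turned with upper-quartile factors (0.021), with gene totals alone (0.054) and with at least 10 counts in every library (0.00040). B1F1, ID2 and ID4 turned with DESeq2 (−0.0076, −0.011 and −0.0073), with TMM without mitochondrial genes (−0.0013, −0.0049 and −0.0012), without a filter (−0.032, −0.036 and −0.032) and with RSEM scaling (−0.0069, −0.011 and −0.0070), and ID2 with TMM over all rows (−0.0027). MIR3, PB1 and PB1D11 turned without a filter (−0.0029, −0.0013 and −0.014).

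With 1 library left out, where the lone library of a group is taken to vary like the other group, 25 SINE rows turned sign. Their ranges were AmnSINE1 −0.049 to 0.0026, B1F1 −0.094 to 0.082, B1F2 −0.031 to 0.15, B1_Mur1 −0.033 to 0.17, B1_Mur2 −0.028 to 0.19, B1_Mur3 −0.012 to 0.17, B1_Mur4 −0.029 to 0.15, B2_Mm1a −0.070 to 0.45, B2_Mm1t −0.16 to 0.46, B2_Mm2 −0.15 to 0.38, B3 −0.11 to 0.26 and B3A −0.086 to 0.25. Further ranges were B4 −0.039 to 0.16, B4A −0.033 to 0.14, ID2 −0.11 to 0.11, ID4 −0.10 to 0.11, ID4_ −0.054 to 0.15, ID_B1 −0.0054 to 0.11, MIR3 −0.036 to 0.085, PB1 −0.031 to 0.084, PB1D10 −0.010 to 0.15, PB1D11 −0.061 to 0.10, PB1D7 −0.018 to 0.088, PB1D9 −0.011 to 0.15 and RSINE1 −0.079 to 0.19. The 10 rows that kept their sign were FAM 0.26 to 0.62, B1_Mm 0.062 to 0.24, B1_Mus1 0.041 to 0.18, B1_Mus2 0.011 to 0.14, B1F 0.051 to 0.14, ID 0.069 to 0.24, MIR 0.029 to 0.19, MIRb 0.077 to 0.14, MIRc 0.032 to 0.083 and AmnSINE2 −0.25 to −0.15.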

Other observations

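The count table has 1 further row whose class is written as SINE with a question mark, MER131, which stayed outside the comparison. It had 49 and 31 reads in control replicates 1 and 2 and 63 and 48 reads in lactate replicates 1 and 2, which is 2.83 and 1.63 against 3.38 and 2.43 CPM. The groups overlapped, and edgeR gave a log2 change of 0.39 (SE 0.34, adjusted p = 0.562).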
